A study of Mus musculus with 18 samples.

Results

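The 45 genes described here encode the machinery that copies DNA and the enzymes that make its nucleotides. They were chosen by gene symbol from 24704 genes named on the arrays, and each of the 45 had exactly 1 row of values. The macrophages came from mouse femur marrow and were grown with M-CSF, the macrophage growth factor, at 30 ng/mL. On day 4 their serum was exchanged for 10% mouse plasma, and RNA was taken 48 hours later, on day 6. All plasma donors were C57BL/6J mice that had eaten a Western diet for 8 weeks. WT plasma came from wild-type mice (4 arrays), ApoE plasma from mice lacking apolipoprotein E (5 arrays), AS1 plasma from mice lacking apolipoprotein E and stabilin-1 (3 arrays), and AS2 plasma from mice lacking apolipoprotein E and stabilin-2 (6 arrays). Apolipoprotein E carries plasma lipids, and the stabilins are scavenger receptors that take molecules out of the circulation. The knockouts are those of the plasma donors, so all 4 groups of macrophages differed only in the plasma they were given, as far as the labels say. The labels do not say whether the plasma was pooled, or whether replicates were separate cultures. P-values therefore rest on how far arrays of a group lie apart, and that spread may be technical.

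DNA replication starts when the origin recognition complex, Cdc6 and Cdt1 load the ring-shaped MCM helicase onto DNA in G1 phase. Cdc45 and the GINS complex then turn it into an active helicase, and polymerases, the sliding clamp PCNA, single-strand binding protein and ligase copy both strands in S phase. Macrophages in culture divide in response to M-CSF. Many replication genes are transcribed under E2F transcription factors, which the retinoblastoma family of pocket proteins holds back in resting cells.

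Because E2F factors are known regulators of such genes, the members' promoters were searched for E2F-type letters. RefSeq promoter windows (build GRCm38.p6, 250 bases before to 50 after the start site) matched 37 of the 45 genes. Orc, MCM, polymerase and ribonucleotide reductase genes were among them, while Prim2, Mcm4, Gins1, Gins2, Gins4, Pole, Gmnn and Rfc2 had no window. The letters TTTGGCGC, TTTCCCGC, TTTGCCGC or TTTCGCGC, read on both strands with overlapping matches counted separately, stood in the windows of 15 of the 37 genes (40.5%). Over all genes with a window the share was 2.6%, or 704 of 27025. Among the members at least 2-fold higher with AS2 than with WT plasma, 8 of 16 had such a match (50.0%), and among the others 7 of 21 (33.3%). CCAAT on either strand, the box bound by NF-Y, stood in 62.2% of the members' windows and in 41.1% of all genes'. A match is a description of the letters, and binding was not measured. The stretches below come from before the start site of genes whose values are described further on, and the capitals mark the E2F-type letters.
Orc1 (chr4:108579407-108579453, plus strand): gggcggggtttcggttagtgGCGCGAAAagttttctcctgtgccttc
Cdc6 (chr11:98907993-98908040, plus strand): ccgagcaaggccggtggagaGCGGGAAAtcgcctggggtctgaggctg
Mcm5 (chr8:75109336-75109387, plus strand): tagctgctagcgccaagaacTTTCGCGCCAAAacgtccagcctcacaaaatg
Mcm6 (chr1:128359725-128359835, minus strand): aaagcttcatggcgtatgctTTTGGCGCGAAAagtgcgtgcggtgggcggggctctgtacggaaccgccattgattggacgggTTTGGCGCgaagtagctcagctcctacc
Mcm7 (chr5:138172021-138172068, minus strand): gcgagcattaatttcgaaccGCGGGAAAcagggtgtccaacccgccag
Gins3 (chr8:95633498-95633545, plus strand): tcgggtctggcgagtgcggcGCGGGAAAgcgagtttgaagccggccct
Pola1 (chrX:93632266-93632313, minus strand): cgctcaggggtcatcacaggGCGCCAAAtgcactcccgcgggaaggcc
Rfc3 (chr5:151651209-151651238, minus strand): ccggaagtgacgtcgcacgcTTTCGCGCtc
The promoter of Rrm2, the member that changed most, is shown for its CCAAT box, which is in capitals.
Rrm2 (chr12:24708154-24708253, plus strand): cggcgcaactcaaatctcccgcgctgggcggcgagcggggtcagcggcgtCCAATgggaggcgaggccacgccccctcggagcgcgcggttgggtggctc
In Mcm6 and Mcm5 matches on the 2 strands overlap in one run of capitals, and Mcm6 has a further match nearer to the start site. Mcm5 and Mcm6 rose together in the comparisons below, whereas Rfc3 and Gins3, which also carry a match, followed other patterns. Mcm2, without an E2F-type match, rose in the same comparisons as Mcm5 and Mcm6, and Rrm2 has no such match either. A link between matches and changes was not tested.

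The deposited values are on a log2 scale, so a difference of 1 is a 2-fold difference, and the median value of the table was 4.37. The distributions of the arrays had been made equal, with 17 of the 18 identical when sorted. A change in the total RNA of a cell is therefore invisible here. In such bulk samples, fewer cells in S phase and less RNA per cell cannot be told apart. Arrays of a group correlated at a mean r of 0.994 to 0.9965 over genes, which are not independent replicates, and ApoE replicate 2 was farthest from its own group (0.99122). Of 10 macrophage markers, 8 were measured, and all 8 lay above the table's median in every group. All comparisons below were tested with limma in 1 model of 4 group means, and "rose" or "fell" means an adjusted p under 0.05 over all 24705 rows. The median difference of all rows was between -0.01 and 0.00 in every comparison, which the equalised distributions bring about.

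The replication genes formed a ladder with WT plasma at the bottom and AS2 plasma at the top. Averaged over the 45 genes, the deviation from each gene's mean over the 18 arrays was -0.48 ± 0.066 (SD, n = 4) with WT plasma, -0.13 ± 0.053 (SD, n = 5) with ApoE, -0.14 ± 0.034 (SD, n = 3) with AS1 and 0.50 ± 0.085 (SD, n = 6) with AS2. The WT arrays (-0.58 to -0.43) lay below all others and the AS2 arrays (0.41 to 0.63) above all others. The ApoE arrays (-0.20 to -0.07) and AS1 arrays (-0.16 to -0.10) overlapped. The highest group mean was that of AS2 for 42 of the 45 genes, and the lowest that of WT for 34. These 2 counts were not taken over all rows.

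**Figure D1:**
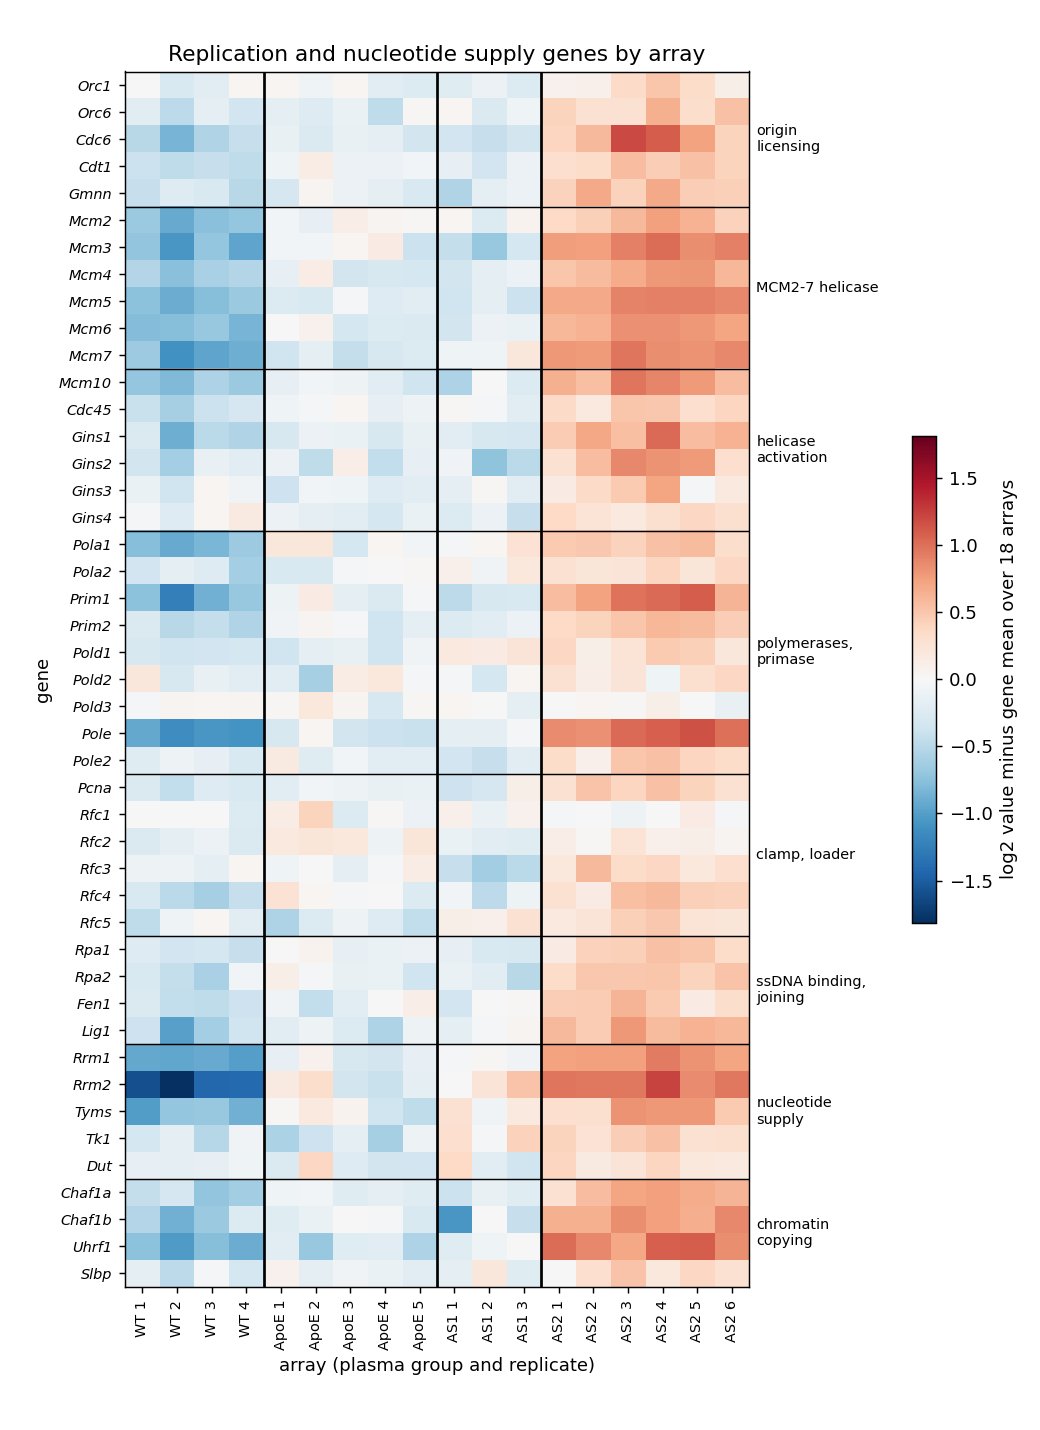
Each row is a gene, ordered by role, and each column an array; colour gives the log2 value minus the gene's mean over the 18 arrays, from -1.81 to 1.23. The AS2 columns are red for most genes and the WT columns blue, with Rrm2 the deepest; Pold3 and Rfc1 stay pale across all columns.

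**Figure D2:**
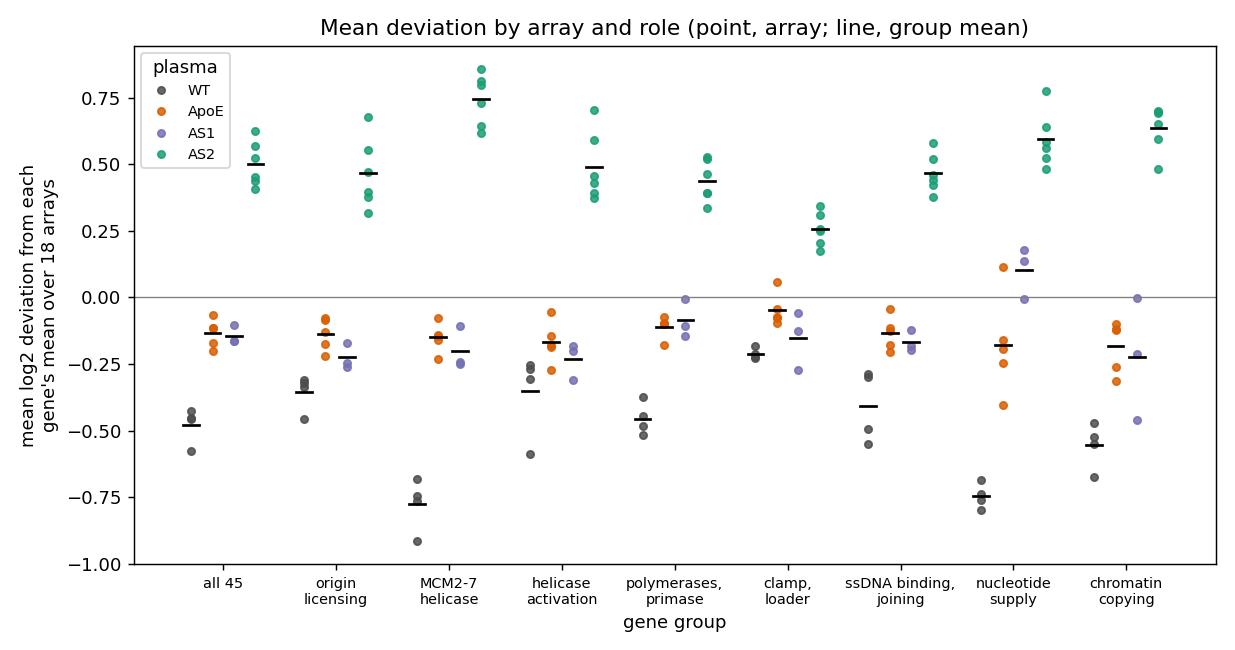
Points are arrays and lines group means of the log2 deviation averaged over the 45 genes and over each role. In the leftmost column the 4 WT arrays lie between -0.58 and -0.43 and the 6 AS2 arrays between 0.41 and 0.63, with the ApoE and AS1 arrays overlapping in between.

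ApoE plasma was set against WT plasma to see how plasma of mice without apolipoprotein E acts on macrophages. With ApoE plasma 22 of the 45 rose, against 8.54% of all rows, and 0 fell, against 8.36%. At an unadjusted p under 0.05 limma counted 29 higher and 1 lower, against 3143 and 3277 of all 24705 rows. The median difference of the 45 was 0.34 log2 units, and the range ran from -0.16 to 1.47. Values did not overlap between the groups for 22 genes, all higher with ApoE plasma (7.4% of all rows). Rrm2, the small subunit of ribonucleotide reductase, was the only one to reach 2-fold (0.826% of all rows). All 6 MCM helicase genes rose, as did 3 of 5 nucleotide genes, 3 of 6 helicase activation genes, 4 of 9 polymerase and primase genes, 2 of 6 clamp and loader genes, 2 of 4 chromatin genes, and 1 gene each of the licensing and of the strand binding and joining groups. The call on Gins1 (0.36 ± 0.11 SE, adjusted p = 0.0342) was lost when single arrays were left out, for example without WT replicate 2 (adjusted p = 0.134).

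With AS2 plasma, from mice that lacked stabilin-2 as well, the increase reached nearly the whole set. Against ApoE plasma 41 of the 45 rose, where 7.59% of all rows did, and 0 fell, where 8.02% did. At an unadjusted p under 0.05 limma counted 42 higher and 0 lower, against 2869 and 3085 of all 24705 rows. The median difference was 0.60, ranging from -0.04 to 1.30, and Mcm5, Mcm7, Pole, Rrm2 and Uhrf1 were at least 2-fold higher (0.672% of all rows). For 37 genes all AS2 arrays lay above all ApoE arrays (5.44% of all rows). The 4 genes that did not pass were Rfc1, Rfc2, Pold2 and Pold3. Dut, which removes dUTP from the nucleotide pool, passed narrowly (0.42 ± 0.13 SE, adjusted p = 0.0292) and no longer passed without ApoE replicate 1, 3, 4 or 5 or AS2 replicate 1 or 4 (adjusted p from 0.0612 to 0.0784). Without both ApoE replicates 2 and 5, a setting chosen after the data were seen, 38 rose, and Rfc4, Orc1 and Slbp no longer passed.

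Of the 6 pairs of groups, AS2 against WT plasma gave the largest median difference. Again 41 of the 45 rose (8.65% of all rows), and 0 fell (9.2%). At an unadjusted limma p under 0.05, 43 were higher and 0 lower, against 3000 and 3484 of all 24705 rows. The 4 that did not pass were Rfc1, Pold2, Pold3 and Dut (0.39 ± 0.13 SE, adjusted p = 0.0539 for Dut). The median was 0.86, and the range ran from -0.02 to 2.55. At least 2-fold differences were seen for 19 genes (1.23% of all rows), and for 41 the arrays did not overlap (8.41%). Both comparisons of AS2 share the same 6 AS2 arrays, and they are given side by side for that reason. By role, the median difference between AS2 and WT was 1.55 for the MCM helicase, 1.39 for nucleotide supply, 1.22 for chromatin copying, 0.86 for licensing, 0.86 for helicase activation, 0.79 for strand binding and joining, 0.64 for polymerases and primase and 0.44 for the clamp and its loader.

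**Figure D3:**
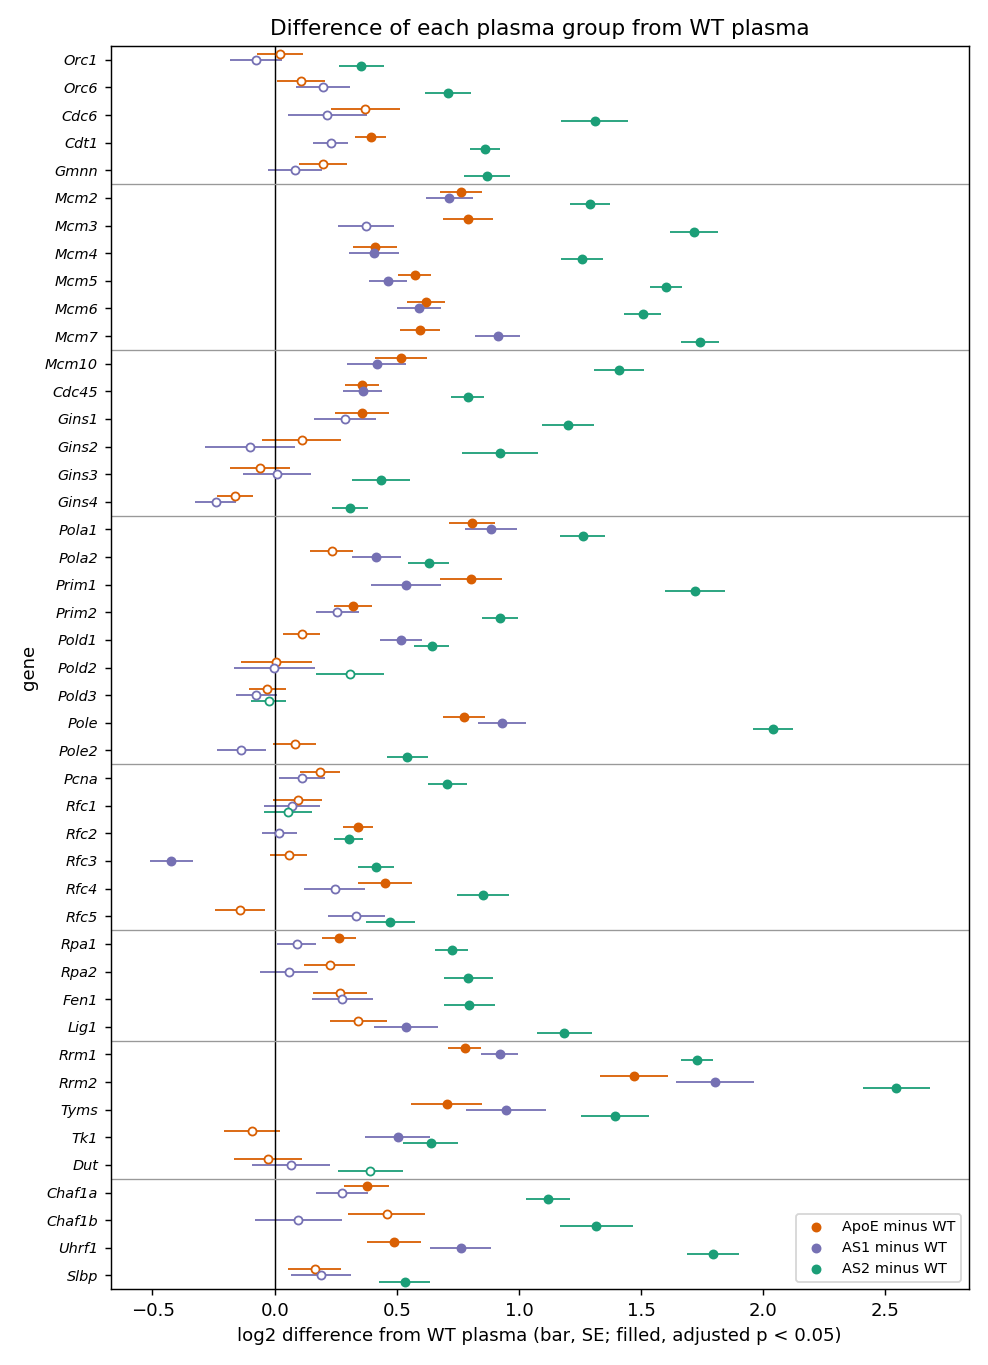
For each gene, in the order of roles, points give the log2 difference of ApoE, AS1 and AS2 plasma from WT plasma with its SE; filled points passed an adjusted p of 0.05. AS2 points lie farthest to the right for most genes, up to 2.55 for Rrm2, while Rfc1, Pold2, Pold3 and Dut have open points at all 3 positions.

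All 5 licensing genes rose with AS2 over ApoE plasma, and 1 of them rose with ApoE over WT plasma. Cdc6, the ATPase that loads the MCM ring at origins, had the largest differences of the 5 between AS2 plasma and each of the other plasmas. In log2 values, Cdc6 stood at 4.56, 4.23, 4.53 and 4.66 with WT plasma, 4.94, 4.81, 4.93, 4.90 and 4.74 with ApoE plasma and 4.73, 4.66 and 4.74 with AS1 plasma, and 5.46, 5.73 and 6.26 (lowest, median, highest) with AS2 plasma. Every AS2 array lay above every other array. Cdc6 was 0.94 ± 0.13 (SE, adjusted p = 3.41e-05) log2 units higher with AS2 than with ApoE plasma and 1.31 ± 0.14 (SE, adjusted p = 1.36e-06) higher than with WT plasma, a 2.48-fold difference. With ApoE plasma the difference from WT was 0.37 ± 0.14 (SE, adjusted p = 0.0894), although these arrays did not overlap. This difference passed in limma fits of the 2 groups alone (adjusted p = 0.0167) and with the replicate number as a block (0.0386). It also passed with rows of low mean left out (0.0497).

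In the main fit Cdt1, the partner of Cdc6 in loading, was the only licensing gene to rise with ApoE plasma. For Cdt1 the WT arrays read 7.24, 7.17, 7.21 and 7.17, the ApoE arrays 7.55, 7.76, 7.53, 7.52 and 7.59, the AS1 arrays 7.48, 7.28 and 7.53, and the AS2 arrays 7.93, 8.05 and 8.19 at their lowest, median and highest. WT, ApoE and AS2 arrays occupied separate ranges, and AS1 arrays fell between WT and AS2. Cdt1 rose by 0.39 ± 0.063 (SE, adjusted p = 0.00019) with ApoE against WT plasma and by 0.47 ± 0.057 (SE, adjusted p = 9.97e-06) with AS2 against ApoE plasma. Geminin (Gmnn), the inhibitor of Cdt1, was 0.20 ± 0.10 (SE, adjusted p = 0.217) in the first of these comparisons and 0.67 ± 0.088 (SE, adjusted p = 2.19e-05) in the second. Orc1 and Orc6, subunits of the origin recognition complex, rose by 0.33 and 0.60 log2 units with AS2 against ApoE plasma. Their differences between ApoE and WT plasma were 0.02 and 0.11, with adjusted p = 0.934 and 0.602. Orc1 was read near the table's median of 4.37, with group means of 4.11 (WT), 4.14 (ApoE), 4.04 (AS1) and 4.47 (AS2). Its rise with AS2 over ApoE plasma had an SE of 0.085 and an adjusted p of 0.0106.

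The MCM helicase, a ring of 6 related subunits that unwinds DNA at the fork, was called more completely than any other role. All 6 genes rose with ApoE over WT, AS2 over ApoE, AS2 over WT and AS2 over AS1 plasma, and all 6 were at least 2-fold higher with AS2 than with WT plasma. Differences between AS2 and WT ran from 1.26 (Mcm4) to 1.74 (Mcm7), a narrow span beside that of the whole set. Mcm7 measured 7.11, 6.68, 6.81 and 6.89 with WT plasma, 7.40, 7.59, 7.33, 7.48 and 7.53 with ApoE plasma and 7.69, 7.68 and 7.98 with AS1 plasma, while its lowest, median and highest AS2 values were 8.54, 8.60 and 8.74. The groups did not overlap, in the order WT, ApoE, AS1, AS2. Mcm7 was 3.34-fold higher with AS2 than with WT plasma (1.74 ± 0.078 SE, adjusted p = 3.53e-11) and 1.15 ± 0.073 (SE, adjusted p = 5.98e-09) higher than with ApoE plasma. It was also the 1 MCM gene to rise with AS1 over ApoE plasma (0.32 ± 0.088 SE, adjusted p = 0.0178), a call lost without AS1 replicate 3 (adjusted p = 0.144).

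Mcm3 did the opposite in that comparison. Mcm3 was at 6.57, 6.24, 6.59 and 6.34 on the WT arrays, 7.24, 7.23, 7.33, 7.43 and 6.91 on the ApoE arrays and 6.86, 6.61 and 6.97 on the AS1 arrays, with 8.03, 8.17 and 8.30 as lowest, median and highest AS2 value. WT arrays were lowest and AS2 arrays highest, with the AS1 arrays just above the WT arrays and reaching into the ApoE range. Mcm3 fell with AS1 against ApoE plasma by 0.42 ± 0.11 log2 units (SE, adjusted p = 0.0129), and without AS1 replicate 2 the call was lost (adjusted p = 0.0958). Between AS2 and AS1 plasma Mcm3 had the largest difference of all 45 genes, 1.34 ± 0.11 (SE, adjusted p = 8.33e-08). Mcm2, Mcm4, Mcm5 and Mcm6 differed between AS1 and ApoE plasma by -0.05, -0.01, -0.11 and -0.03, none past the threshold, with the 95% interval of Mcm6 from -0.21 to 0.15. Mcm5, whose promoter is shown above, was 6.86 ± 0.098 (SD, n = 4) with WT, 7.44 ± 0.098 (SD, n = 5) with ApoE, 7.33 ± 0.11 (SD, n = 3) with AS1 and 8.47 ± 0.11 (SD, n = 6) with AS2 plasma. Mcm6 stood at 8.11 ± 0.062 (SD, n = 4), 8.73 ± 0.17 (SD, n = 5), 8.70 ± 0.13 (SD, n = 3) and 9.62 ± 0.099 (SD, n = 6) in the same order.

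**Figure D4:**
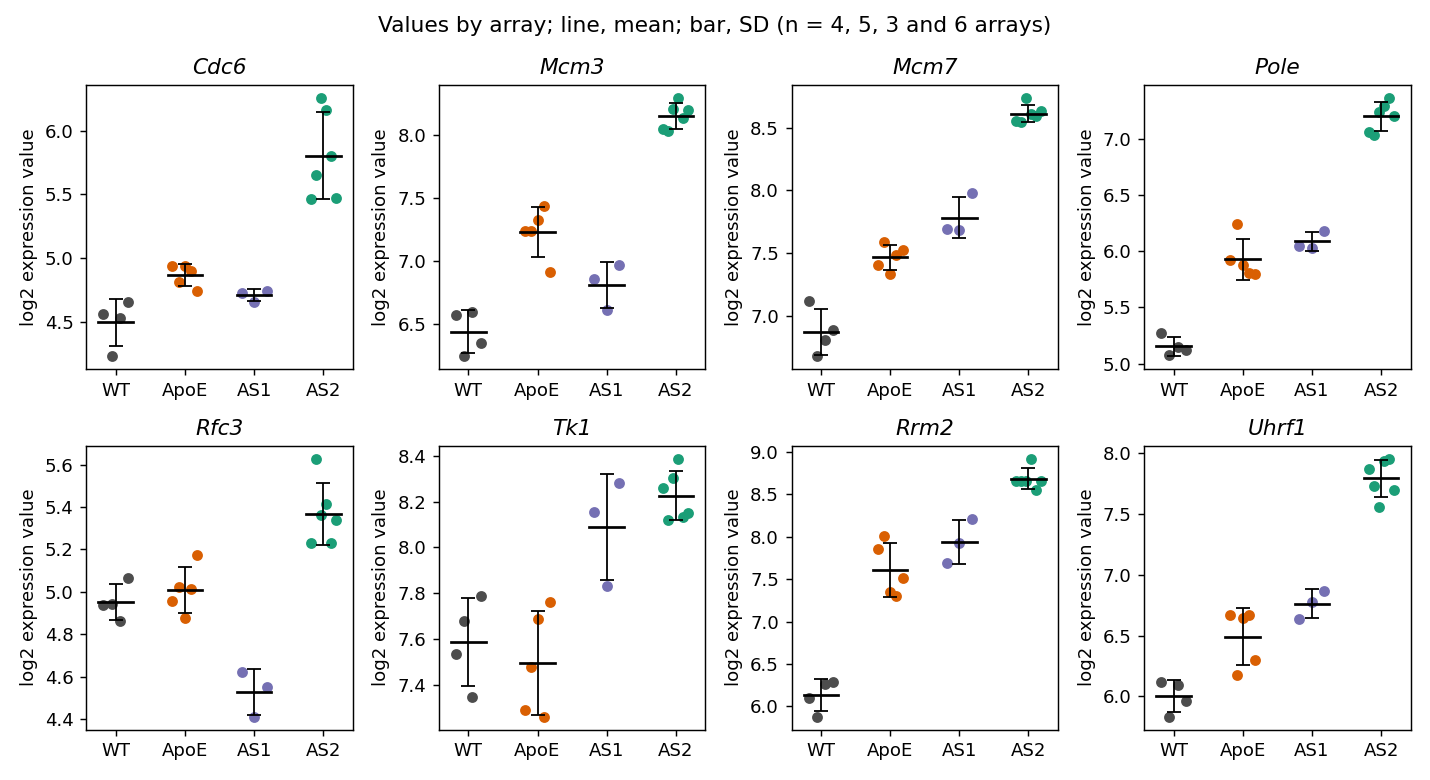
Log2 values of Cdc6, Mcm3, Mcm7, Pole, Rfc3, Tk1, Rrm2 and Uhrf1 on each array (points), with group mean and SD. AS2 arrays are highest in every panel except that of Tk1, where AS1 and AS2 share a range; AS1 arrays are lowest for Rfc3.

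Of the 6 helicase activation genes 3 rose with ApoE over WT plasma and all 6 with AS2 over ApoE plasma. Mcm10, which helps start unwinding, was among the 3. In log2 values, Mcm10 stood at 4.77, 4.66, 4.90 and 4.80 with WT plasma, 5.32, 5.42, 5.38, 5.27 and 5.11 with ApoE plasma and 4.91, 5.47 and 5.21 with AS1 plasma, and 6.01, 6.17 and 6.44 (lowest, median, highest) with AS2 plasma. WT arrays lay below all ApoE arrays, and AS2 arrays above all others. Mcm10 rose by 0.52 ± 0.11 (SE, adjusted p = 0.00205) with ApoE against WT plasma and by 0.89 ± 0.10 (SE, adjusted p = 2.6e-06) with AS2 against ApoE plasma. Cdc45, which joins the MCM ring in the active helicase, rose in the same comparisons by 0.36 and 0.43. Gins2, a GINS subunit, did not pass with ApoE plasma. For Gins2 the WT arrays read 5.20, 4.92, 5.40 and 5.35, the ApoE arrays 5.43, 5.08, 5.66, 5.09 and 5.39, the AS1 arrays 5.48, 4.82 and 5.05, and the AS2 arrays 5.81, 6.20 and 6.42 at their lowest, median and highest. WT, ApoE and AS1 arrays overlapped and all AS2 arrays were higher. Gins2 was 0.11 ± 0.16 (SE, adjusted p = 0.777) with ApoE over WT plasma and 1.02 ± 0.17 (SE, adjusted p = 0.000218) with AS2 over AS1 plasma. Gins3 and Gins4, of the same complex, were -0.06 and -0.16 with ApoE against WT plasma, with neither past the threshold. Both rose with AS2 over ApoE plasma, by 0.50 and 0.47. Gins4 fell with ApoE against WT plasma once WT replicate 2 was left out (-0.24, adjusted p = 0.0254).

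Among the polymerases, the catalytic subunit of the leading-strand polymerase epsilon, Pole, stood out by size. Pole measured 5.28, 5.08, 5.15 and 5.12 with WT plasma, 5.92, 6.24, 5.88, 5.81 and 5.80 with ApoE plasma and 6.05, 6.03 and 6.18 with AS1 plasma, while its lowest, median and highest AS2 values were 7.03, 7.22 and 7.36. WT and AS2 arrays were clear of every other group, and ApoE and AS1 arrays overlapped through ApoE replicate 2. Pole was 4.12-fold higher with AS2 than with WT plasma (2.04 ± 0.082 SE, adjusted p = 1.06e-11) and 2.41-fold higher than with ApoE plasma (1.27 ± 0.077 SE, adjusted p = 3.41e-09). Its partner subunit Pole2 was 0.08 ± 0.088 (SE, adjusted p = 0.674) with ApoE over WT plasma and rose by 0.46 ± 0.08 (SE, adjusted p = 0.000389) with AS2 over ApoE plasma.

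Primase and polymerase alpha lay down the RNA-DNA primers. Prim1 was at 5.22, 4.71, 5.09 and 5.27 on the WT arrays, 5.86, 6.11, 5.78, 5.70 and 5.93 on the ApoE arrays and 5.48, 5.67 and 5.68 on the AS1 arrays, with 6.51, 6.81 and 7.05 as lowest, median and highest AS2 value. Prim1, the catalytic primase subunit, had AS1 arrays between the WT and ApoE ranges. It rose by 0.81 ± 0.13 (SE, adjusted p = 0.000151) with ApoE over WT plasma and by 1.18 ± 0.13 (SE, adjusted p = 3.75e-06) with AS2 over AS1 plasma. In log2 values, Pola1 stood at 6.48, 6.34, 6.42 and 6.59 with WT plasma, 7.46, 7.46, 6.93, 7.29 and 7.20 with ApoE plasma and 7.24, 7.28 and 7.52 with AS1 plasma, and 7.56, 7.74 and 7.83 (lowest, median, highest) with AS2 plasma. ApoE and AS1 arrays overlapped, with WT arrays below and AS2 arrays above. Pola1, the catalytic subunit of polymerase alpha, had its larger step at the bottom, 0.81 ± 0.094 (SE, adjusted p = 6.48e-06) from WT to ApoE plasma and 0.45 ± 0.085 (SE, adjusted p = 0.00087) from ApoE to AS2 plasma. Its rise with AS2 over AS1 plasma (0.37 ± 0.10 SE, adjusted p = 0.00996) was lost without AS1 replicate 1 (adjusted p = 0.0701) or AS1 replicate 2 (0.0502). Pola2 and Prim2, the second subunits, rose by 0.40 and 0.60 with AS2 over ApoE plasma.

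Polymerase delta, the lagging-strand enzyme, did not move as a unit. Its catalytic subunit Pold1 rose with AS1 over ApoE plasma (0.41 ± 0.081 SE, adjusted p = 0.0016) and with AS2 over ApoE plasma (0.53 ± 0.067 SE, adjusted p = 1.52e-05). Pold2 and Pold3, its accessory subunits, passed in none of the 6 comparisons. For Pold2 the WT arrays read 5.70, 5.21, 5.37 and 5.30, the ApoE arrays 5.32, 4.89, 5.64, 5.70 and 5.47, the AS1 arrays 5.48, 5.18 and 5.53, and the AS2 arrays 5.42, 5.76 and 5.88 at their lowest, median and highest. Pold3 measured 8.36, 8.43, 8.41 and 8.42 with WT plasma, 8.40, 8.57, 8.43, 8.08 and 8.40 with ApoE plasma and 8.41, 8.38 and 8.19 with AS1 plasma, while its lowest, median and highest AS2 values were 8.24, 8.39 and 8.48. The groups overlapped for both genes. Pold2 differed by 0.31 between AS2 and WT plasma, with a 95% interval of 0.01 to 0.60. The same interval for Pold3 was narrower, -0.18 to 0.13, around a difference of -0.02.

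The sliding clamp PCNA tethers polymerases to DNA, and the 5-subunit replication factor C loads it. Pcna was 11.82 ± 0.097 (SD, n = 4) with WT, 12.01 ± 0.06 (SD, n = 5) with ApoE, 11.93 ± 0.26 (SD, n = 3) with AS1 and 12.53 ± 0.11 (SD, n = 6) with AS2 plasma. It rose with AS2 over ApoE plasma by 0.52 ± 0.075 (SE, adjusted p = 6.01e-05) and was 0.19 ± 0.083 (SE, adjusted p = 0.157) with ApoE over WT plasma. The loader subunits went separate ways, and this was the most mixed of the 8 role groups with AS1 against ApoE plasma, with 1 gene up, 2 down and 3 not past. Rfc4 rose with both ApoE and AS2 plasma. Rfc4 was at 5.80, 5.59, 5.47 and 5.66 on the WT arrays, 6.34, 6.11, 6.05, 6.07 and 5.83 on the ApoE arrays and 6.04, 5.60 and 5.98 on the AS1 arrays, with 6.23, 6.51 and 6.66 as lowest, median and highest AS2 value. AS2 and ApoE ranges overlapped. Rfc4 rose by 0.45 ± 0.11 (SE, adjusted p = 0.00751) with ApoE over WT plasma and by 0.40 ± 0.10 (SE, adjusted p = 0.0084) with AS2 over ApoE plasma. Leaving out ApoE replicates 2 and 5 ended the second call (adjusted p = 0.0676).

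Rfc5 rose with AS1 plasma. In log2 values, Rfc5 stood at 7.12, 7.50, 7.62 and 7.38 with WT plasma, 7.03, 7.33, 7.48, 7.34 and 7.13 with ApoE plasma and 7.69, 7.67 and 7.86 with AS1 plasma, and 7.76, 7.82 and 8.07 (lowest, median, highest) with AS2 plasma. AS1 and AS2 arrays shared a range above the ApoE arrays. Rfc5 was 0.48 ± 0.11 (SE, adjusted p = 0.00594) higher with AS1 than with ApoE plasma and 0.62 ± 0.093 (SE, adjusted p = 0.000103) higher with AS2 than with ApoE plasma. Rfc3 fell with AS1 plasma instead. For Rfc3 the WT arrays read 4.94, 4.94, 4.86 and 5.06, the ApoE arrays 4.96, 5.02, 4.88, 5.02 and 5.17, the AS1 arrays 4.62, 4.41 and 4.55, and the AS2 arrays 5.23, 5.35 and 5.63 at their lowest, median and highest. The AS1 arrays were below all others and the AS2 arrays above all others. Rfc3 was -0.48 (adjusted p = 0.000519) with AS1 against ApoE and -0.42 (adjusted p = 0.00407) with AS1 against WT plasma, the only member to fall in the latter comparison.

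Rfc2 followed yet another pattern. Rfc2 measured 7.002, 7.10, 7.15 and 6.999 with WT plasma, 7.43, 7.47, 7.46, 7.18 and 7.48 with ApoE plasma and 7.13, 7.08 and 7.04 with AS1 plasma, while its lowest, median and highest AS2 values were 7.28, 7.36 and 7.51. WT and AS1 arrays shared the low range and ApoE and AS2 arrays the high one. Rfc2 rose by 0.34 ± 0.061 (SE, adjusted p = 0.000572) with ApoE over WT plasma, fell by 0.32 ± 0.067 (SE, adjusted p = 0.00226) with AS1 against ApoE plasma and was -0.04 ± 0.055 (SE, adjusted p = 0.788) with AS2 against ApoE plasma. Rfc1, the largest subunit, passed in no comparison. Rfc1 was at 7.70, 7.70, 7.68 and 7.44 on the WT arrays, 7.82, 8.09, 7.44, 7.71 and 7.58 on the ApoE arrays and 7.78, 7.56 and 7.77 on the AS1 arrays, with 7.59, 7.68 and 7.84 as lowest, median and highest AS2 value. Its groups overlapped, and its difference between AS2 and WT plasma was 0.05, with a 95% interval of -0.15 to 0.26.

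The 4 genes chosen for single-strand binding and fragment joining all rose with AS2 over ApoE plasma. Rpa1 and Rpa2 encode subunits of RPA, which coats unwound DNA. Rpa3, a further RPA subunit, was kept in the list of further replication genes described below and did not rise. Its difference between AS2 and ApoE plasma was 0.02 ± 0.15 (SE, adjusted p = 0.966). In log2 values, Rpa1 stood at 7.55, 7.43, 7.47 and 7.38 with WT plasma, 7.77, 7.86, 7.64, 7.66 and 7.68 with ApoE plasma and 7.64, 7.52 and 7.49 with AS1 plasma, and 7.93, 8.22 and 8.32 (lowest, median, highest) with AS2 plasma. For Rpa2 the WT arrays read 6.24, 6.09, 5.93 and 6.47, the ApoE arrays 6.62, 6.50, 6.38, 6.39 and 6.15, the AS1 arrays 6.40, 6.32 and 6.01, and the AS2 arrays 6.86, 7.01 and 7.04 at their lowest, median and highest. For both genes every AS2 array lay above every other array. Rpa1 was the 1 gene of this role to rise with ApoE over WT plasma (0.26 ± 0.07 SE, adjusted p = 0.0124), a call lost when ApoE replicates 2 and 5 were both left out (adjusted p = 0.0558). Rpa2 was 0.23 ± 0.10 (SE, adjusted p = 0.179) in the same comparison and 0.73 ± 0.11 (SE, adjusted p = 7.34e-05) with AS2 over AS1 plasma. Lig1, the ligase that seals Okazaki fragments, had the largest difference of the role between AS2 and ApoE plasma. Lig1 measured 6.30, 5.69, 6.05 and 6.32 with WT plasma, 6.48, 6.57, 6.43, 6.11 and 6.58 with ApoE plasma and 6.51, 6.65 and 6.73 with AS1 plasma, while its lowest, median and highest AS2 values were 7.13, 7.26 and 7.45. The AS2 arrays were clear of the rest. Lig1 rose by 0.84 ± 0.11 (SE, adjusted p = 1.31e-05) with AS2 over ApoE plasma, and its difference between ApoE and WT plasma was 0.34 ± 0.12 (SE, adjusted p = 0.0534). Fen1, the nuclease that trims those fragments, rose by 0.53 ± 0.10 (SE, adjusted p = 0.000781) with AS2 over ApoE plasma.

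Nucleotide supply held the gene with the largest differences of the set from WT plasma. Ribonucleotide reductase turns ribonucleotides into the building blocks of DNA, and Rrm2 is its small subunit, made mainly in S phase. Rrm2 was at 6.11, 5.88, 6.27 and 6.29 on the WT arrays, 7.86, 8.01, 7.35, 7.29 and 7.51 on the ApoE arrays and 7.69, 7.92 and 8.20 on the AS1 arrays, with 8.54, 8.65 and 8.92 as lowest, median and highest AS2 value. WT arrays lay clear below all others, ApoE and AS1 arrays overlapped, and AS2 arrays were highest. Rrm2 was 2.77-fold higher with ApoE than with WT plasma (1.47 ± 0.14 SE, adjusted p = 7.06e-07) and 5.84-fold higher with AS2 than with WT plasma (2.55 ± 0.14 SE, adjusted p = 2.78e-10). Between AS2 and ApoE plasma the difference was 1.07 ± 0.13 (SE, adjusted p = 7.12e-06). The large subunit followed with tight replicates. In log2 values, Rrm1 stood at 8.09, 8.08, 8.11 and 8.03 with WT plasma, 8.88, 9.10, 8.73, 8.69 and 8.88 with ApoE plasma and 8.98, 9.05 and 8.96 with AS1 plasma, and 9.74, 9.77 and 9.96 (lowest, median, highest) with AS2 plasma. Rrm1 ranges were separate for WT and AS2, and ApoE and AS1 overlapped. Rrm1 rose by 0.78 ± 0.068 (SE, adjusted p = 2.43e-07) with ApoE over WT plasma and by 0.81 ± 0.071 (SE, adjusted p = 2.54e-07) with AS2 over AS1 plasma. Tyms, thymidylate synthase, rose by 0.70 ± 0.15 (SE, adjusted p = 0.00198) with ApoE over WT plasma and, with AS2 over ApoE plasma, by 0.69 ± 0.13 (SE, adjusted p = 0.000978).

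Thymidine kinase 1 (Tk1), which salvages thymidine, kept another order and was singled out after its values were seen. For Tk1 the WT arrays read 7.54, 7.68, 7.34 and 7.79, the ApoE arrays 7.29, 7.48, 7.69, 7.26 and 7.76, the AS1 arrays 8.16, 7.83 and 8.28, and the AS2 arrays 8.12, 8.21 and 8.39 at their lowest, median and highest. WT and ApoE arrays overlapped below the AS1 and AS2 arrays, which overlapped with each other. Tk1 had the largest rise of the set with AS1 over ApoE plasma, 0.60 ± 0.13 (SE, adjusted p = 0.0027). Its difference between ApoE and WT plasma was -0.09 ± 0.12 (SE, adjusted p = 0.73), and that between AS2 and AS1 was 0.14, with a 95% interval of -0.12 to 0.39. The rise with AS1 over WT plasma (0.50 ± 0.13 SE, adjusted p = 0.0211) was lost without AS1 replicate 1 or 3 or WT replicate 1 or 3 (adjusted p from 0.053 to 0.127).

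The last role covers what is copied along with DNA, its chromatin. Uhrf1 binds newly copied, half-methylated DNA and brings in the maintenance methyltransferase. Uhrf1 measured 6.12, 5.83, 6.09 and 5.96 with WT plasma, 6.67, 6.17, 6.65, 6.67 and 6.30 with ApoE plasma and 6.64, 6.78 and 6.87 with AS1 plasma, while its lowest, median and highest AS2 values were 7.56, 7.80 and 7.96. AS2 arrays were clear of all others and WT arrays lay below the rest. Uhrf1 had the largest difference of the 45 genes between AS2 and ApoE plasma, 1.30 ± 0.10 (SE, adjusted p = 4.42e-08), which is 2.47-fold. With ApoE over WT plasma it rose by 0.49 ± 0.11 (SE, adjusted p = 0.00375). Chaf1a and Chaf1b are subunits of the chromatin assembly factor that places histones behind the fork. Chaf1b was at 6.25, 5.91, 6.10 and 6.53 on the WT arrays, 6.57, 6.65, 6.79, 6.76 and 6.50 on the ApoE arrays and 5.73, 6.78 and 6.37 on the AS1 arrays, with 7.42, 7.48 and 7.66 as lowest, median and highest AS2 value. AS1 replicate 1 was the lowest array of all, and AS2 arrays were highest. Chaf1b rose by 1.22 ± 0.16 (SE, adjusted p = 2.62e-05) with AS2 over AS1 plasma and was -0.36 ± 0.17 (SE, adjusted p = 0.191) with AS1 against ApoE plasma. Without AS1 replicate 2 it fell in the latter comparison (-0.61, adjusted p = 0.0139). Chaf1a rose by 0.38 with ApoE over WT and by 0.74 with AS2 over ApoE plasma. Slbp, which binds histone messenger RNA, rose by 0.37 ± 0.10 (SE, adjusted p = 0.0132) with AS2 over ApoE plasma.

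AS1 plasma, from mice without stabilin-1, gave few calls in the set when compared with ApoE plasma. Of the 45 genes 4 rose (7.74% of all rows) and 3 fell (8.8%), both shares near the background. The 4 were Tk1, Rfc5, Pold1 and Mcm7, and the 3 were Mcm3, Rfc2 and Rfc3. The median difference was -0.05, the range ran from -0.48 to 0.60, and 0 genes reached 2-fold (0.518% of all rows rose that far). Arrays did not overlap for 4 genes that were higher (9.04% of all rows) and 4 that were lower (9.2%). The 38 genes that did not pass are not thereby shown to be equal, and the 95% interval of Cdc6, for example, ran from -0.48 to 0.17. Without ApoE replicate 2, 7 genes rose, with Pole, Rrm1 and Rrm2 added.

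Against WT plasma AS1 plasma raised 18 genes (4.84% of all rows) and lowered 1 (4.64%), Rfc3. The median difference was 0.27, from -0.42 to 1.80, with Rrm2 again at the top (1.80 ± 0.16 SE, adjusted p = 7.49e-07) and alone in reaching 2-fold (0.951% of all rows). Arrays did not overlap for 22 genes that were higher (8.77% of all rows) and 1 that was lower (9.38%). Of the MCM genes 5 of 6 rose, of the polymerase and primase genes 5 of 9, and of the nucleotide genes 4 of 5. Of the 5 licensing genes 0 rose. At an unadjusted limma p under 0.05, 1 of these 5 was higher, against 2337 of all 24705 rows. Without AS1 replicate 3 the count was 12, and Mcm4, Mcm10, Pola2, Prim1, Lig1 and Tk1 were no longer called.

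The 2 double-knockout plasmas were compared directly. With AS2 over AS1 plasma 37 of the 45 rose (11.5% of all rows) and 0 fell (10.6%). At an unadjusted limma p under 0.05, 39 were higher and 0 lower, against 3804 and 3676 of all 24705 rows. The median difference was 0.63, from -0.02 to 1.34, and 8 genes were at least 2-fold higher (1.01% of all rows). For 36 genes every AS2 array lay above every AS1 array (12.3% of all rows). The 8 that did not pass were Rfc1, Rfc5, Pola2, Pold1, Pold2, Pold3, Tk1 and Dut. For Pold1 the difference was 0.12, with a 95% interval of -0.04 to 0.29, and for Rfc5 0.14, with -0.09 to 0.37. This comparison and that of AS1 with ApoE plasma share the AS1 arrays. The calls on Slbp and Tyms were narrow (adjusted p = 0.0381 and 0.0458), and each was lost without any 1 of several arrays.

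**Figure D5:**
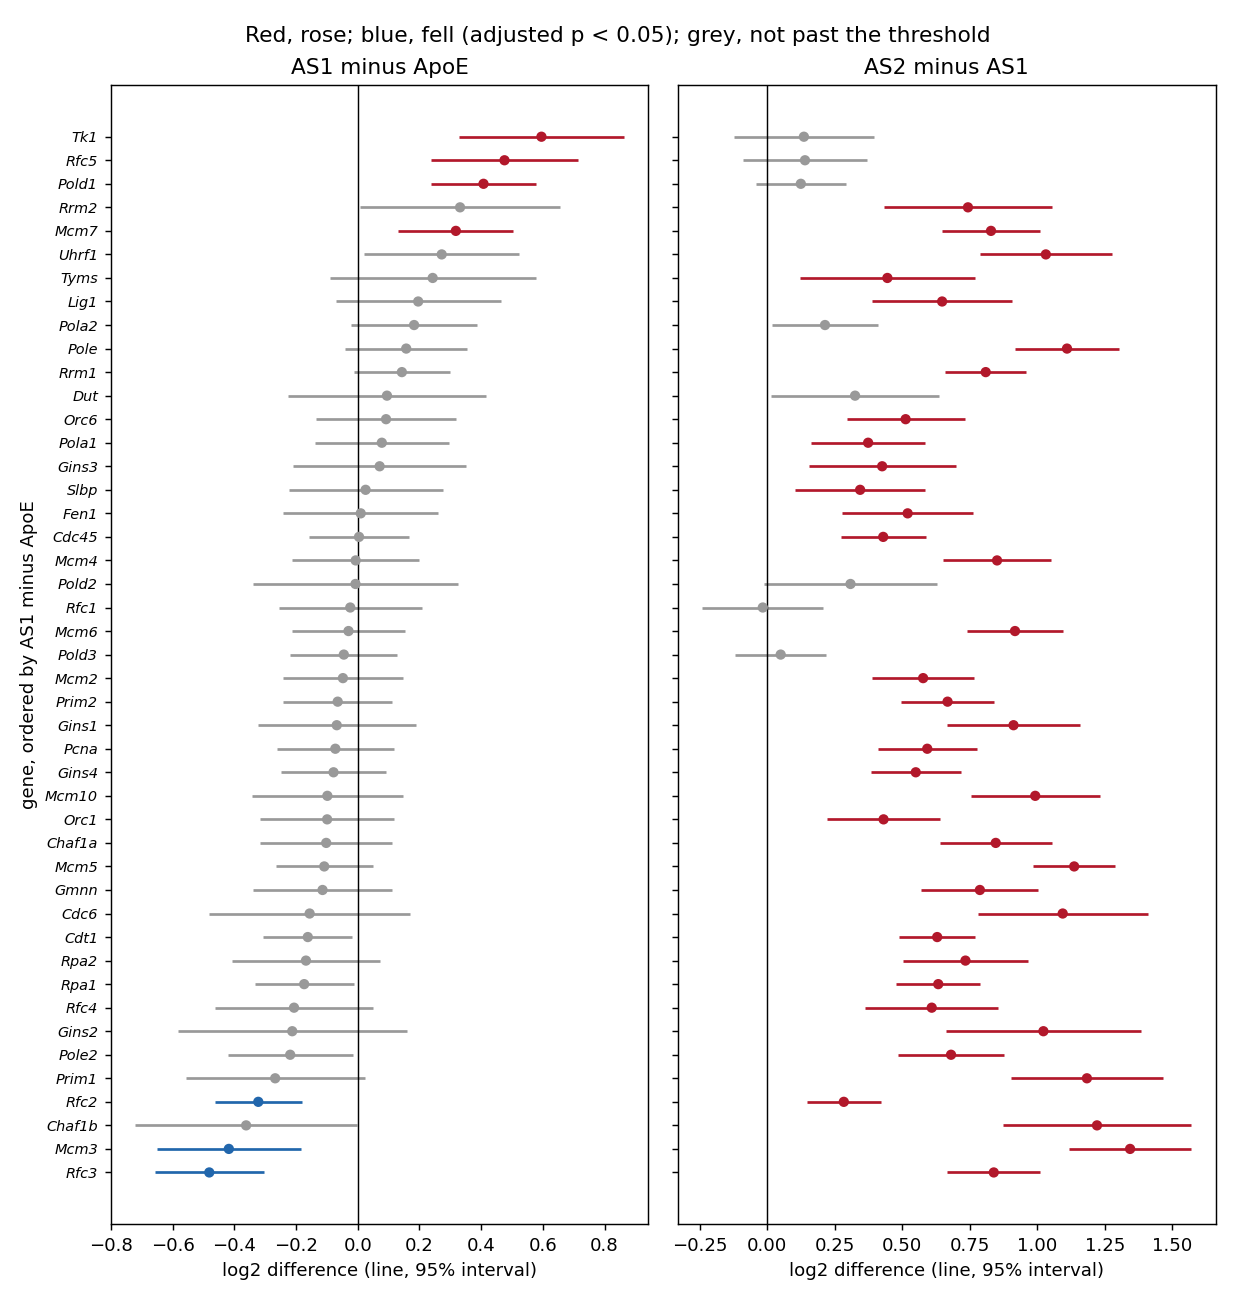
Genes are ordered by the difference between AS1 and ApoE plasma (left), with the difference between AS2 and AS1 plasma on the right; lines are 95% intervals. On the left 4 genes are red, 3 blue and 38 grey around 0; on the right 37 are red and 8 grey.

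Other genes of the same pathways were taken from lists written for this work. Of 33 further replication genes, 16 rose and 0 fell with ApoE over WT plasma (8.54% and 8.36% of all rows). With AS2 over WT plasma 21 rose and 0 fell (8.65% and 9.2%). Top2a, the topoisomerase that untangles copied chromosomes, rose by 2.18 and 3.15 in these comparisons. With AS2 over ApoE plasma 18 rose and 2 fell (7.59% and 8.02% of all rows). The 2 that fell were Orc3 and Orc4, subunits of the origin recognition complex. The rises included Asf1b, a histone chaperone (1.22), Ticrr, an activator of origins (0.79), and Dnmt1, the methyltransferase that Uhrf1 brings to DNA (0.37). With AS1 over ApoE plasma 3 rose and 5 fell (7.74% and 8.8% of all rows), including Asf1b (0.63) and the histone chaperone Nasp (-0.55). The list's median difference between AS2 and WT plasma was 0.63, against 0.86 for the 45 genes.

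Other nucleotide genes moved both ways. Of 35 listed, 33 had a row and were analysed here. With AS2 over WT plasma 19 rose and 5 fell (8.65% and 9.2% of all rows), with a median of 0.30. Ppat, the first enzyme of purine synthesis, rose by 1.02 and the deoxycytidine kinase Dck by 0.61. Tk2 and Dguok, the kinases of mitochondrial nucleotide salvage, fell, at -0.68 and -0.44, as did Rrm2b (-0.42), the reductase subunit used outside S phase; Ppat, Dguok and Rrm2b were named after their values were seen. Samhd1, which breaks down DNA building blocks, fell with ApoE against WT plasma (-0.53) and rose with AS1 against ApoE plasma (0.65). In the latter comparison 6 of the list rose and 11 fell (7.74% and 8.8% of all rows). The purine enzymes Impdh1 (-0.70) and Atic (-0.74) were among those that fell.

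Of 13 genes of E2F factors and pocket proteins, 7 rose and 1 fell with ApoE over WT plasma (8.54% and 8.36% of all rows). With AS1 over ApoE plasma 5 rose and 2 fell (7.74% and 8.8%). With AS2 over ApoE plasma 6 rose and 0 fell (7.59% and 8.02%). The repressor genes E2f7 and E2f8 rose in all 3. E2f8 rose by 0.73, 0.73 and 0.99 in these 3 comparisons and E2f7 by 0.48, 0.50 and 0.49. E2f6, of the same family, fell with AS1 against ApoE plasma (-0.68, adjusted p = 0.00104). With AS2 over AS1 plasma E2f6 rose (0.79, adjusted p = 0.000124). The activator E2f1 was -0.02 with ApoE over WT plasma (adjusted p = 0.911) and rose by 0.64 with AS2 over ApoE plasma. Rbl1, a pocket protein, rose by 0.71 with ApoE over WT plasma. With AS2 over AS1 plasma 5 of the 13 rose and 1 fell (11.5% and 10.6% of all rows). Rbl1 rose there (0.74, adjusted p = 2.09e-05), and the 1 that fell was Rb1, another pocket protein (-0.54, adjusted p = 5.28e-05).

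Markers of other marrow cells also differed between the groups. Of all rows, 8.54% rose and 8.36% fell with ApoE over WT plasma, and 7.74% and 8.8% with AS1 over ApoE plasma. The shares were 7.59% and 8.02% with AS2 over ApoE plasma, and 8.65% and 9.2% with AS2 over WT plasma. For AS2 over AS1 plasma they were 11.5% and 10.6%, and for AS1 over WT plasma 4.84% and 4.64%. The mean level of 13 neutrophil and precursor markers was 7.31 to 7.59 on the WT arrays, 7.15 to 8.25 on the ApoE arrays, 8.98 to 9.21 on the AS1 arrays and 6.76 to 7.37 on the AS2 arrays. All 13 rose with AS1 over ApoE plasma and fell with AS2 against AS1 plasma. With ApoE over WT plasma 2 rose and 1 fell, with AS2 against ApoE plasma 0 rose and 5 fell, and with AS2 against WT plasma 1 rose and 5 fell. Of 7 stem and progenitor markers 3 rose with ApoE over WT plasma and 4 fell with AS2 against ApoE plasma, at mean levels of 4.42 to 4.59 (WT), 4.64 to 4.84 (ApoE), 4.94 to 5.07 (AS1) and 4.39 to 4.59 (AS2). Of 6 osteoclast markers 3 rose with AS2 over ApoE plasma, 4 with AS2 over WT plasma and 3 with AS2 over AS1 plasma, with mean levels of 5.51 to 5.90 on the AS2 arrays and 4.69 to 4.83 on the ApoE arrays. Of 4 megakaryocyte markers 3 rose and 1 fell with ApoE over WT plasma, with a median difference of 1.19, and 3 rose with AS1 over ApoE plasma. All 4 fell with AS2 against ApoE plasma, and with AS2 against WT plasma 0 rose and 1 fell. Their mean levels were 7.34 to 7.44 (WT), 7.64 to 8.60 (ApoE), 8.73 to 8.96 (AS1) and 6.39 to 6.90 (AS2). AS1 over ApoE plasma also raised 5 of 8 markers of mast cells, basophils and eosinophils, and AS1 over WT plasma raised 5. With AS2 against AS1 plasma 0 of these 8 rose and 6 fell. Their mean levels were 4.16 to 4.35 (WT), 4.17 to 4.44 (ApoE), 4.81 to 5.21 (AS1) and 4.05 to 4.20 (AS2). Of 5 T and NK cell markers 0 lay above the table's median in any group. The 8 macrophage markers averaged 11.13 to 11.16 with WT, 10.58 to 10.77 with ApoE, 10.98 to 11.15 with AS1 and 10.69 to 10.82 with AS2 plasma. Of the 8 macrophage markers 1 rose and 6 fell with ApoE over WT plasma, and 6 rose and 0 fell with AS1 over ApoE plasma. AS2 plasma gave 3 rises and 2 falls against ApoE plasma, and 0 and 5 against both WT and AS1 plasma. With AS1 over WT plasma 0 rose and 1 fell. The part of these cell types in the values of the replication genes was not tested.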

How the data were processed

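Expression was measured in 18 arrays of mouse macrophages. Per the submitters' processing notes, the authors made the deposited log2 values with RMA, which corrects background, equalises arrays and summarises probes; version, probe set definition and build: not given in the sources used here. ApoE replicate 1 held 24162 distinct values and the other arrays 7087 each. The platform annotation named 24705 of 25428 rows with 1 symbol, 0 with several and 723 with none. Precision is limited by the number of arrays, which carry no read depth.

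From the deposited values, limma 3.58.1 in R 4.3.3 fitted 4 group means (lmFit, eBayes, 14 residual degrees of freedom). The 6 pairs of groups were tested two-sided, with Benjamini-Hochberg adjustment over all rows and a threshold of 0.05. No batch was named in the labels. Scripts were tested on simulated data. Array-by-array values are given for the member of each role with the largest change in ApoE minus WT, AS2 minus ApoE and AS2 minus AS1, for members called against the majority, and for members not past the threshold in ApoE minus WT, AS2 minus ApoE or AS2 minus WT; Tk1 was added. The members, roles and lists were chosen with earlier results of these data known. Sequences are from RefSeq.

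Alternatives were leaving out rows under the 40th percentile of mean value, keeping unnamed rows, 1 row for each gene, quantile normalization again, centring on medians, a trended robust variance, array weights, the 2 groups alone, a threshold of 0.01, the replicate number as a block, each array left out and, added after the data were seen, both ApoE replicates 2 and 5 left out.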

Additional observations from a re-analysis of the deposited data

Results flagged for a closer look

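In 72 groups of 4 to 6 arrays, over the 23 genes named by the rule and the mean of the 45 genes, 5 had 1 array far from the rest by Dixon's test; chance marks about 1 group in 20. Both Cdt1 and Pole had their far array in ApoE replicate 2, the array farthest from its own group over all genes. Cdt1 was at 7.76 there with the nearest ApoE array at 7.59, and Pole at 6.24 with the nearest at 5.92. Rfc2 was at 7.18 on ApoE replicate 4, below the nearest ApoE array at 7.43. Rrm2 was at 8.92 on AS2 replicate 4, above the nearest AS2 array at 8.66. Rfc1 was at 7.44 on WT replicate 4, below the nearest WT array at 7.68.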

How the results depend on the processing

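Over the alternatives, 0 of 2691 recomputed differences of the 23 genes named by the rule changed direction while called, 29 lost and 28 gained a call. With single arrays left out, the genes that rose numbered 21 to 24 (ApoE over WT), 3 to 7 (AS1 over ApoE), 40 to 41 (AS2 over ApoE), 12 to 19 (AS1 over WT), 40 to 41 (AS2 over WT) and 34 to 37 (AS2 over AS1). Those that fell numbered 0 to 1 with ApoE against WT and 1 to 2 with AS1 against WT plasma. With array weights 2 fell with AS1 against WT plasma (Rfc3 and Gins4). For the other settings the range of rises was 20 to 25, 3 to 6, 38 to 41, 12 to 19, 40 to 42 and 34 to 37 in the same order of comparisons. Deviations of same-numbered arrays from their group means correlated weakly (22 pairs, r from -0.207 to 0.133, 4 above 0.1). With so few arrays in a group this cannot settle whether the numbers pair the arrays, and the labels do not say. With the replicate number as a block, 21, 3, 39, 16, 41 and 35 genes rose in that order. With 3 AS1 arrays, differences involving AS1 are the least precise.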
